A study of Mus musculus with 8 samples.

Results

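RNA of olfactory bulb cells that carried a neurotensin reporter was compared with RNA of the bulb cells that lacked it at embryonic day 17 (E17). The comparison rests on 2 of 8 libraries, 1 GFP-positive and 1 GFP-negative, and has no replicate. A row of the deposited table entered when its FPKM (fragments per kilobase of a gene's transcript, adjusted for the size of the library) was at least 5 in the higher E17 library. Rows of microRNAs and small nucleolar RNAs were left out. This gave 11087 of 42084 rows, of which 8482 were single protein-coding genes. The difference of a row is log2((GFP-positive FPKM + 1)/(GFP-negative FPKM + 1)), so a positive value means higher in GFP-positive cells, and the added 1 understates the fold of low genes. With 1 library a side no difference at E17 carries a test, and "higher" and "lower" stand for a difference of at least 1 log2 unit between these libraries.

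All mice were of mixed 129 x C57BL/6J background and were homozygous or heterozygous for the Nts-IRES-tauGFP allele. This allele makes the Nts gene express, besides its own product, green fluorescent protein (GFP) joined to tau, so the GFP-negative cells come from reporter animals too. Bulbs were dissociated with papain and sorted into both populations at E13, E15 and E17 and at birth (P0). A GFP-negative cell is any sorted bulb cell without reporter signal, and not a defined cell type. The number of animals behind a sort is not stated in the labels.

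The olfactory bulb sends its output to the brain through mitral and tufted cells, glutamatergic neurons that are born in the embryonic bulb and express transcription factors such as Eomes and Tbr1. Its local neurons are mostly GABAergic, depend on Dlx genes and go on arriving by migration after birth. Neurotensin is a secreted peptide cut from the precursor that Nts encodes, and it acts on G protein-coupled receptors and on sorting receptors of the sortilin family.

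The promoters of 4 genes are shown, each 250 bases before to 50 bases after the gene's start in RefSeq on assembly GRCm38.p6, 5′ to 3′ on the strand of the gene. That of Nts is shown because it drives the reporter by which the cells were sorted, and that of Eomes because Eomes marks mitral and tufted cells. Those of Ccnb1, the mitotic cyclin B1, and Ube2c, a ubiquitin-conjugating enzyme of mitosis, are shown because cell cycle genes were lower together in GFP-positive cells. Capitals mark matches on either strand to any of 4 motifs. The motif bound by the factor NF-Y is spelled CCAAT, and the cell cycle genes homology region is spelled TTTGAA. The core of a cAMP response element is spelled TGACG, and the box bound by the TATA-binding protein is spelled TATAAA.
Nts, chr10:102490369-102490668, minus strand: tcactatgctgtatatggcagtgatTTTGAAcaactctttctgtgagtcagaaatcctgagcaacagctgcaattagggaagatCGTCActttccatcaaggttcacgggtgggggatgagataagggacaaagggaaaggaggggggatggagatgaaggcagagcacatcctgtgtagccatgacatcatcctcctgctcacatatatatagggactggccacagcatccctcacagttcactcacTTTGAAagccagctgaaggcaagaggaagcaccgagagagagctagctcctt
Eomes, chr9:118477939-118478238, plus strand: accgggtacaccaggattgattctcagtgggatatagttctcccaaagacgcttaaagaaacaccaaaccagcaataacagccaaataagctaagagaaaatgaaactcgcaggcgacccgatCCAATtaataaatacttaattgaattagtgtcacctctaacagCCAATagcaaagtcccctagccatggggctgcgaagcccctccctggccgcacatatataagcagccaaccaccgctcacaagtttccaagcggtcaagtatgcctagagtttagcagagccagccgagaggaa
Ccnb1, chr13:100786437-100786736, minus strand: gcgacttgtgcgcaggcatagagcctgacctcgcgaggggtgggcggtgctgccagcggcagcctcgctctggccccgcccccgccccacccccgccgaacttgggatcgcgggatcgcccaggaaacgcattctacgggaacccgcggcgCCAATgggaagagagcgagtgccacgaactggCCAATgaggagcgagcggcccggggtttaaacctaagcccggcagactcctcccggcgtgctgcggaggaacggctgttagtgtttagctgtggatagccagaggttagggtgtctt
Ube2c, chr2:164769679-164769978, plus strand: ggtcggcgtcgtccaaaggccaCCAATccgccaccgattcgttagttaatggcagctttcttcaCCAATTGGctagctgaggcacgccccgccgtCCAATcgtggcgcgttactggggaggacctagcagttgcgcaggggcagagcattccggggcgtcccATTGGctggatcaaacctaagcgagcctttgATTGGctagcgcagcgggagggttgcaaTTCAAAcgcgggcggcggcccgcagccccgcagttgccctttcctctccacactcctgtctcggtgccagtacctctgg
The Nts window held TTTGAA at -225 and at -2 and the reverse complement of TGACG at -166, counted from the gene's start to the leftmost printed letter of the match. The Eomes window held CCAAT at -127 and -84, and the Ccnb1 window held it at -99 and -67. The Ube2c window held CCAAT on the printed strand at -228, -186 and -155 and its reverse complement at -183, -88 and -57, where the matches at -186 and -183 overlap. It also held the reverse complement of TTTGAA at -29. TATAAA was found in none of these 4 windows. Of 27025 genes with such a window, 41.1% held CCAAT, 20.2% TTTGAA, 23.0% TGACG and 15.7% TATAAA, so single matches are common and describe the letters only.

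Depth was similar in both E17 libraries. Low FPKM values lay close to whole multiples of 1 read (87.3% and 88.6% within 0.1 read, with the scale set on the same genes), which implied about 6280000 reads in the GFP-positive and 5490000 in the GFP-negative library. An FPKM of 5 on a transcript of 2 kb then stood for 56.6 and 49.4 reads. Very short predicted transcripts gave extreme values: of the 286 rows more than 5 log2 units apart, 249 were under 300 bases long. The counts below are therefore those of single protein-coding genes, and those over all rows are given once beside them.

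At E17 the genes higher and lower in GFP-positive cells were nearly equal in number. Of 8482 protein-coding genes, 969 (11.4%) were higher and 974 (11.5%) lower, and 4317 (50.9%) lay within 0.5 log2 units. Over all 11087 rows the counts were 1483 (13.4%) higher and 1613 (14.5%) lower. By at least 2 log2 units, 241 protein-coding genes (2.84%) were higher and 350 (4.13%) lower, or 550 (4.96%) and 713 (6.43%) over all rows. The median difference over protein-coding genes was -0.0043. Just inside the threshold lay Slc7a6os at 1.0014 and Rad23b at 1.0022, and just outside it Clmp at 0.9998 and Dll1 at 0.9982. On the lower side, Cdc42se2 at -1.0004 and Rnf167 at -1.002 were just inside, and Adamtsl4 at -0.9973 and Zdhhc17 at -0.9947 just outside.

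**Figure D1:**
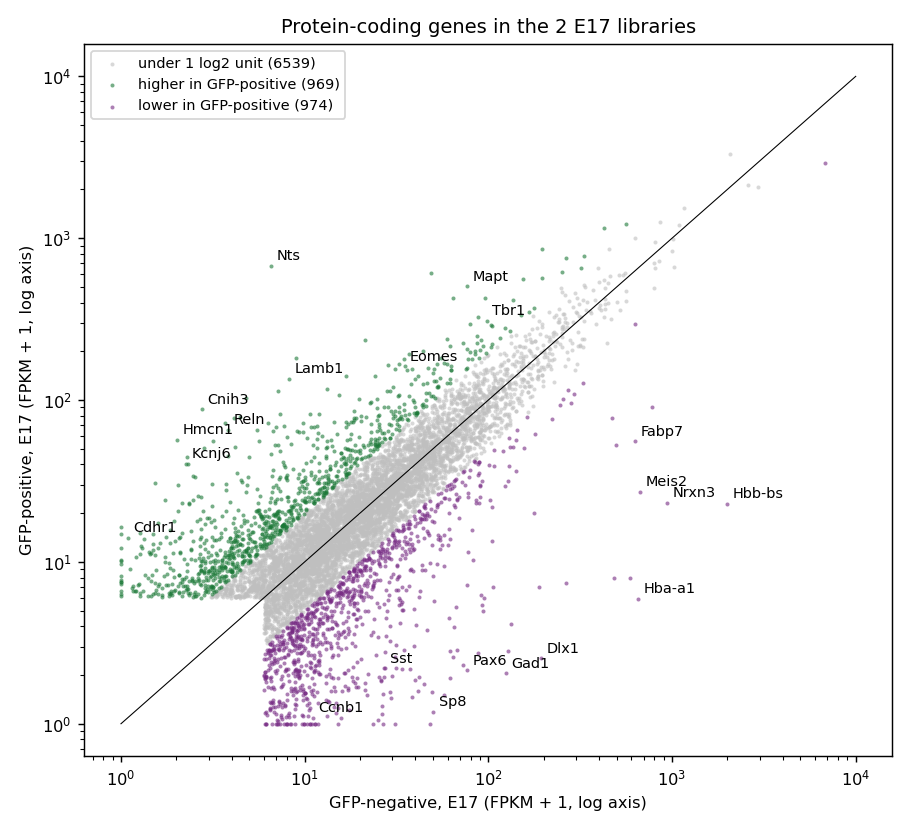
FPKM + 1 of the 8482 protein-coding genes in the GFP-negative (horizontal) and GFP-positive (vertical) E17 libraries, both axes logarithmic, 1 point a gene, with the line of equal values. Green points are the 969 genes at least 1 log2 unit higher and purple points the 974 at least 1 log2 unit lower in GFP-positive cells; Nts lies far above the line at 673 against 5.59 FPKM, and Dlx1 and Hba-a1 far below it.

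Nts and Eomes were higher and Dlx1 was lower in the GFP-positive library. Nts (chromosome 10, 102481756 to 102490486, minus strand) stood at 673 FPKM in GFP-positive and 5.59 FPKM in GFP-negative cells, a difference of 6.68 and the largest higher difference among protein-coding genes. The sort selected for this gene's reporter, so the value is a check of the labels only. Eomes (chromosome 9, 118478212 to 118486132, plus strand) stood at 161 and 34.0 FPKM, a difference of 2.21. Dlx1 (chromosome 2, 71528113 to 71533981, plus strand), a homeobox factor of GABAergic neurons, stood at 1.55 and 192 FPKM, a difference of -6.25. Mapt, which encodes the microtubule-binding protein tau, stood at 504 and 75.5 FPKM, a difference of 2.72. The reporter protein also holds tau, and the labels do not state whether its reads were counted under Mapt.

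After Nts, Cnih3 and Hmcn1 had the largest higher differences among protein-coding genes. Cnih3, an auxiliary protein of AMPA-type glutamate receptors (chromosome 1, 181352628 to 181460641, plus strand), stood at 86.9 FPKM in GFP-positive and 1.76 in GFP-negative cells, a difference of 4.99. Hmcn1, which encodes the matrix protein hemicentin, stood at 55.9 and 1.02 FPKM, a difference of 4.82. Epb4.1l4a, of the band 4.1 family of proteins that link membrane and cytoskeleton, stood at 102 and 3.77 FPKM, a difference of 4.43. All 3 were low in GFP-negative cells and well expressed in GFP-positive cells. Tmem132d, which encodes a single-pass membrane protein, stood at 29.6 and 0.533 FPKM, a difference of 4.32. Diras1, a small GTPase of the Ras family, stood at 71.6 and 2.70 FPKM, and Fblim1, an adaptor of cell-matrix junctions, at 43.5 and 1.30 FPKM. Slc4a10, a sodium-driven bicarbonate transporter, stood at 55.1 and 2.15 FPKM. Their differences were 4.30, 4.27 and 4.15, so the 7 genes after Nts named so far lay within 1 log2 unit of each other.

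The other genes named at the upper end lay close to 4 log2 units. Gcg, the precursor of glucagon and of glucagon-like peptides, stood at 49.6 FPKM in GFP-positive and 1.84 in GFP-negative cells, a difference of 4.15. Igfbp5, which binds insulin-like growth factors, stood at 77.3 and 3.46 FPKM, and Reln, the secreted glycoprotein reelin (chromosome 5, 21884454 to 22344702, minus strand), at 64.8 and 2.81 FPKM. Their differences were 4.13 and 4.11. Apod, a secreted lipocalin, had 15.5 FPKM in the GFP-positive library and was listed at 0 in the GFP-negative one. Chrm2, the M2 muscarinic acetylcholine receptor, stood at 39.0 and 1.32 FPKM, a difference of 4.11. Kcnj6, a potassium channel subunit opened by G protein-coupled receptors, stood at 39.4 and 1.26 FPKM, a difference of 4.16. Tmem121 also belongs to this upper end, at 76.0 and 3.12 FPKM, and is described with the other ages because it was high in no other library.

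Hemoglobin genes and both GABA synthesis genes were among the genes at the lower end of the range. Hba-a1 stood at 4.94 FPKM in GFP-positive and 654 in GFP-negative cells, and Hbb-bs at 21.9 and 1994 FPKM. Gad1, which encodes the GABA-synthesizing enzyme GAD67 (chromosome 2, 70553072 to 70602014, plus strand), stood at 1.06 and 124 FPKM, a difference of -5.92. Gad2, its relative GAD65, stood at 1.74 and 86.8 FPKM, a difference of -5.00. Both enzymes were near the floor in GFP-positive cells. Nrxn3, a presynaptic adhesion protein, was among the most abundant genes of the GFP-negative library at 940 FPKM, against 22.3 in the GFP-positive one, a difference of -5.34. The zinc finger factor gene Sp8 stood at 0.185 and 49.2 FPKM, and the TALE homeobox factor gene Pbx3 at 6.42 and 263 FPKM. Hist1h2bl, a histone H2B gene with near-identical copies among which reads could be divided, was listed at 0 in GFP-positive cells and stood at 47.4 FPKM in GFP-negative cells.

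The most abundant genes were shared by both libraries. Tuba1a, an alpha-tubulin, stood at 3324 FPKM in GFP-positive and 2069 in GFP-negative cells, a difference of 0.68. Nnat, which encodes the small membrane protein neuronatin, stood at 2924 and 6797 FPKM, a difference of -1.22, and was the most abundant named gene of the GFP-negative library. Atp5b, a subunit of ATP synthase, and Actb, beta-actin, came next in GFP-positive cells and lay at -0.28 and -0.49. Hbb-bs was among the 5 most abundant genes of the GFP-negative library only.

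Mitral and tufted cell markers were mostly higher in GFP-positive cells. Of 14 markers at 5 FPKM or more, 11 were higher and 1 lower, with a median of 1.85, against 11.4% higher and 11.5% lower over all protein-coding genes. The same 2 shares are the comparison for the counts of every list that follows. Tbr1, a T-box factor of glutamatergic neurons, stood at 307 FPKM in GFP-positive and 97.4 in GFP-negative cells, a difference of 1.65. Barhl2, a homeobox factor, stood at 76.0 and 17.7 FPKM, and Cdhr1, a protocadherin-like adhesion protein of mitral and tufted cells, at 13.1 and 0.0883 FPKM. Their differences were 2.04 and 3.70. Slc17a6, the vesicular glutamate transporter VGLUT2, stood at 44.5 and 16.7 FPKM, and its relative Slc17a7 (VGLUT1) had 6.71 FPKM in the GFP-positive library and was listed at 0 in GFP-negative cells. Eomes, Tbr1 and Slc17a6 were thus well above 5 FPKM in both libraries. Ntng1, an axonal adhesion protein, was the lower marker, at 5.39 and 20.7 FPKM. Tbx21, a T-box factor of mature mitral and tufted cells, stood at 0.208 and 0 FPKM, and Lhx5, Cck, Ebf3 and Thy1 were also under 5 FPKM in both libraries. In bulk RNA, fewer cells of a type and less RNA per cell cannot be told apart, here and in the lists that follow.

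GABAergic interneuron genes were lower in GFP-positive cells by the widest margin of any neuronal list. Of 22 such genes at 5 FPKM or more, 18 were lower and 1 higher, with a median of -4.67, against a median of -0.0043 over all protein-coding genes. The Dlx factors moved together. Dlx2 stood at 0.907 and 60.8 FPKM, Dlx5 at 1.82 and 126 FPKM, and Dlx6 at 3.16 and 132 FPKM. Slc32a1, the vesicular GABA transporter, stood at 0.061 and 24.0 FPKM. Meis2, a TALE homeobox factor, stood at 26.2 and 672 FPKM. Th, tyrosine hydroxylase, which marks dopaminergic cells of the glomerular layer, stood at 0.588 and 9.82 FPKM. All of these were at least 2.77 log2 units lower in GFP-positive cells. The members outside this pattern were Calb2, the calcium-binding protein calretinin, at 95.9 and 38.3 FPKM (1.30), and Robo2, Tshz1 and Etv1, which lay between -0.96 and 0.22. Calb2 and Robo2 are also expressed by neurons other than GABAergic cells.

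**Figure D2:**
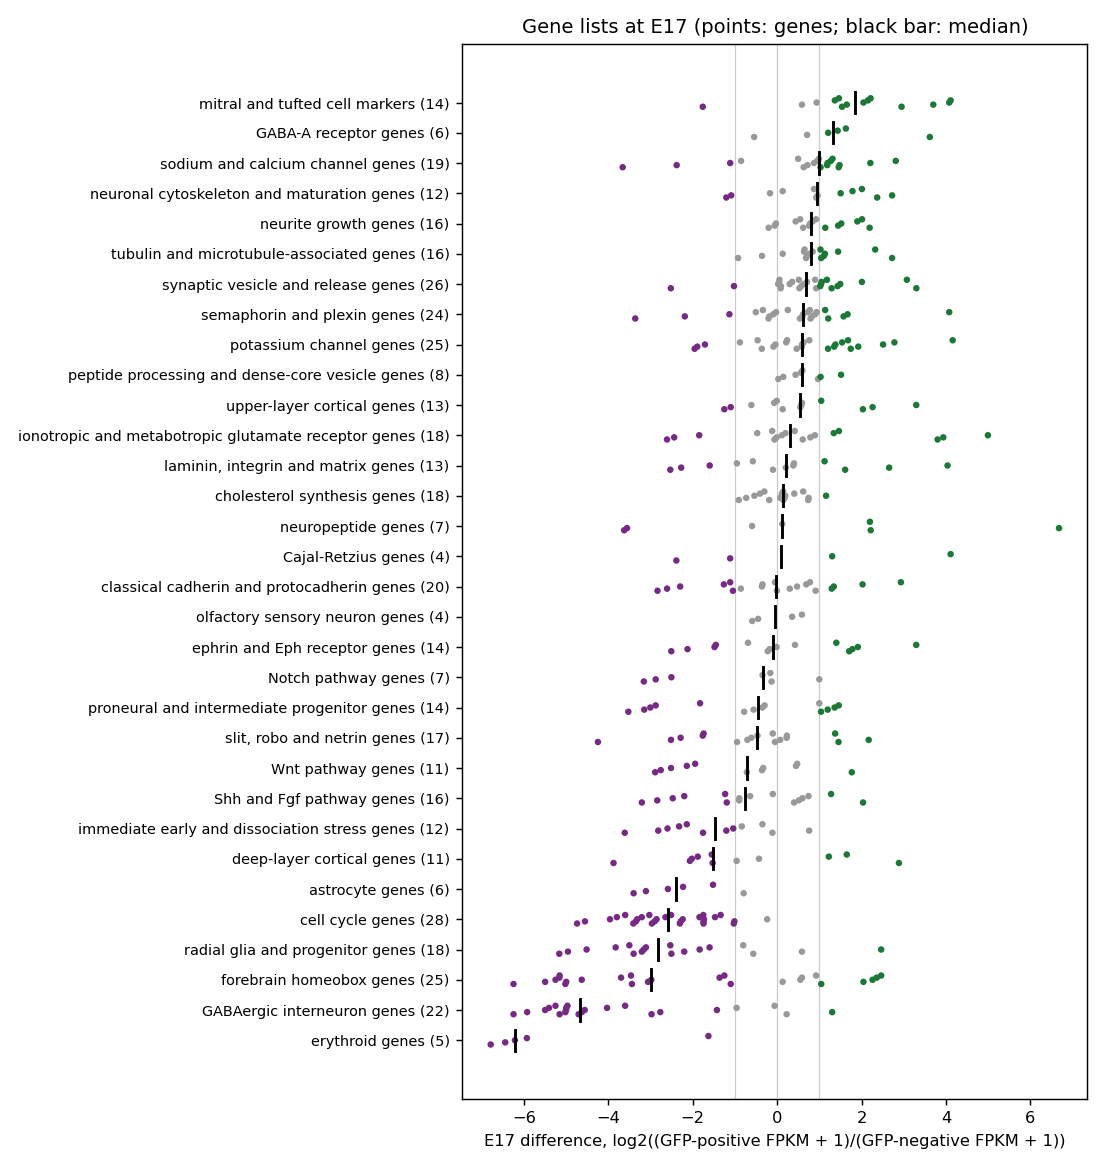
Difference at E17 (horizontal axis, log2 of the ratio of FPKM + 1) of each gene at 5 FPKM or more in the lists with at least 4 such genes, 1 point a gene, with the number of genes in brackets and a black bar at the median. Green points are at least 1 log2 unit higher and purple points at least 1 log2 unit lower; mitral and tufted cell markers have the highest median at 1.85 and erythroid genes the lowest at -6.21, with GABAergic interneuron genes at -4.67.

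Nearly all cell cycle genes and most progenitor genes were lower in GFP-positive cells. Of 28 cell cycle genes, 27 were lower and 0 higher, with a median of -2.58. Ube2c stood at 1.87 FPKM in GFP-positive and 66.3 in GFP-negative cells, a difference of -4.55, and Ccnb1 at 0.0865 and 10.05 FPKM, a difference of -3.35. Top2a, the topoisomerase of dividing cells, stood at 2.28 and 86.6 FPKM in a row it shares with a predicted gene. Mki67, which marks dividing cells, stood at 0.930 and 18.2 FPKM. The exception, Mcm7, a subunit of the replicative helicase, stood at 30.8 and 36.5 FPKM in a row shared with microRNAs. Its partners Mcm2, Mcm3, Mcm4, Mcm5 and Mcm6 lay between -3.03 and -1.01. Summed over the list, cell cycle genes came to 91.7 FPKM in GFP-positive and 585 FPKM in GFP-negative cells.

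Of 18 genes of radial glia and other progenitors, 14 were lower and 1 higher, with a median of -2.82. Pax6, a paired-box factor of progenitors and of some bulb interneurons, stood at 1.15 and 75.9 FPKM, and Sox2, a stem cell factor, at 0.843 and 25.1 FPKM. Fabp7, the brain fatty acid-binding protein of radial glia, stood at 54.6 and 629 FPKM, a difference of -3.50. Emx2, a homeobox factor of the dorsal forebrain, was the exception at 35.9 and 5.70 FPKM, a difference of 2.46. The genes of neurogenesis were divided. Of 14 proneural and intermediate progenitor genes, 4 were higher and 5 lower, with a median of -0.45. Neurog1, a proneural factor, stood at 0.109 and 8.83 FPKM, whereas Neurod6 and Neurod2, basic helix-loop-helix factors of glutamatergic neurons, stood at 286 and 103 and at 120 and 51.9 FPKM. Neurog2, the proneural factor of glutamatergic lineages, stood at 7.75 and 9.76 FPKM, a difference of -0.30.

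Forebrain homeobox genes followed the same division. Of 25 genes, 16 were lower and 5 higher, with a median of -2.98. The median was -1.39 with an FPKM of at least 1, -1.36 with at least 20 and -1.34 with a pseudocount of 5. The list overlaps the interneuron list in genes such as the Dlx genes, Meis2 and Pbx3. The 5 higher genes were Emx2, Emx1, Pou3f1, Barhl2 and Cux1. Emx1, which with Emx2 marks the dorsal forebrain, stood at 32.9 and 5.62 FPKM, and the POU factor gene Pou3f1 at 52.0 and 10.1 FPKM. Otx2 and Vax1, factors of forebrain patterning, were listed at 0 in GFP-positive cells and stood at 10.02 and 7.33 FPKM in GFP-negative cells. Genes named for cortical layers did not go one way. Of 11 deep-layer genes 3 were higher and 6 lower, with Fezf2, a zinc finger factor, at 51.6 and 6.12 FPKM and the forkhead factor gene Foxp2 at 5.23 and 90.5 FPKM. Of 13 upper-layer genes 4 were higher and 2 lower, with a median of 0.55.

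Neurite growth genes and tubulin genes were higher or between, and none was lower, while the genes of neuronal cytoskeleton and maturation went both ways. Of 16 neurite growth genes 6 were higher and 0 lower, with a median of 0.81. Nrcam, a cell adhesion molecule of axons, stood at 201 and 43.2 FPKM, Gap43, a growth cone protein, at 238 and 58.3 FPKM, and Cntn2, an axonal contactin, at 325 and 86.5 FPKM. Map1b, a microtubule-associated protein of growing axons, stood at 1163 and 427 FPKM, a difference of 1.44. Of 16 tubulin and microtubule-associated genes 7 were higher and 0 lower, also with a median of 0.81. Map6, which stabilizes microtubules, had more than 1 row, and its most abundant row stood at 71.7 and 13.5 FPKM. Of 12 genes of neuronal cytoskeleton and maturation, 5 were higher and 2 lower, with a median of 0.94 and with Rbfox3, the neuronal splicing factor NeuN, among the lower at 4.03 and 10.6 FPKM. Mapt, at 2.72, had the largest difference both in this list and in the tubulin list. The labels do not state whether reads of the tau reporter were counted under it. The neurofilament genes Nefl, Nefm and Nefh were under 2 FPKM in both libraries.

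Synaptic vesicle and release genes were higher more often than lower, with most in between. Of 26 genes, 10 were higher, 2 lower and 14 between, with a median of 0.67. Over all protein-coding genes 11.4% were higher and 11.5% lower. Sv2b, a synaptic vesicle glycoprotein, stood at 67.3 and 5.95 FPKM, a difference of 3.30. Syt1, the calcium sensor of fast release, stood at 112 and 27.2 FPKM. Related genes differed among themselves. Sv2a, the relative of Sv2b, stood at 34.3 and 26.6 FPKM, and Sv2c at 0.0794 and 2.36 FPKM. Of the synapsins, Syn1 lay at 0.53 and Syn3 at 0.02, while Syn2 stood at 0.398 and 7.01 FPKM.

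Glutamate receptor genes divided by subunit. Of 18 receptor and auxiliary genes 5 were higher and 3 lower, with a median of 0.31, against 11.4% and 11.5% of all protein-coding genes. Cnih3, given above, was the highest of them. The AMPA subunit gene Gria1 stood at 8.65 and 51.4 FPKM, a difference of -2.44, and the kainate subunit gene Grik3 at 8.39 and 56.3 FPKM, a difference of -2.61. The NMDA subunit genes Grin1 and Grin2b lay at 0.42 and 0.61. Gria2, Gria3, Gria4 and Grm8 share their rows with predicted genes or microRNAs. The row of Grm8 stood at 139 and 8.16 FPKM at E17, but at 1.25 to 3.74 FPKM in the 3 other GFP-positive libraries, so its 3.94 was not repeated at another age. The mean difference at the 3 other ages was -1.53 for the row of Gria3 and -0.12 for that of Gria2. E17 departed from these means by 2.99 and -1.73 log2 units. The row of Gria4 departed by only -0.30 from a mean of 1.09.

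GABA-A receptor genes went mostly one way. Of 6 genes 4 were higher and 0 lower, with a median of 1.32. Gabra5, an alpha subunit of extrasynaptic receptors, stood at 50.2 and 3.18 FPKM, a difference of 3.62. The other alpha subunit genes Gabra3 and Gabra2 lay at 1.43 and 1.21, and the gamma subunit gene Gabrg3 at 0.71.

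Ion channel genes were more often higher than lower, against 11.4% higher and 11.5% lower over all protein-coding genes. The lower potassium channel genes are a share near that 11.5%. Of 25 potassium channel genes 10 were higher and 3 lower, with a median of 0.59, and of 19 sodium and calcium channel genes 9 were higher and 3 lower, with a median of 0.99. Kcna4 and Kcnh1, voltage-gated potassium channels, stood at 13.3 and 1.09 FPKM and at 17.3 and 2.21 FPKM. Kcnt1, a sodium-activated potassium channel, stood at 89.6 and 26.1 FPKM. Cacna1e, which encodes the R-type calcium channel, stood at 107 and 14.4 FPKM, a difference of 2.81. Among the lower genes were the A-type potassium channels Kcnd2 and Kcnd3, the calcium-activated channel Kcnn2 and the calcium channel genes Cacna1g and Cacna2d2. Cacna1g, a T-type calcium channel, stood at 0.169 and 13.8 FPKM, a difference of -3.66, and Kcnd3 at 17.5 and 67.9 FPKM. Hcn4, a pacemaker channel, stood at 15.01 and 4.83 FPKM.

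**Figure D3:**
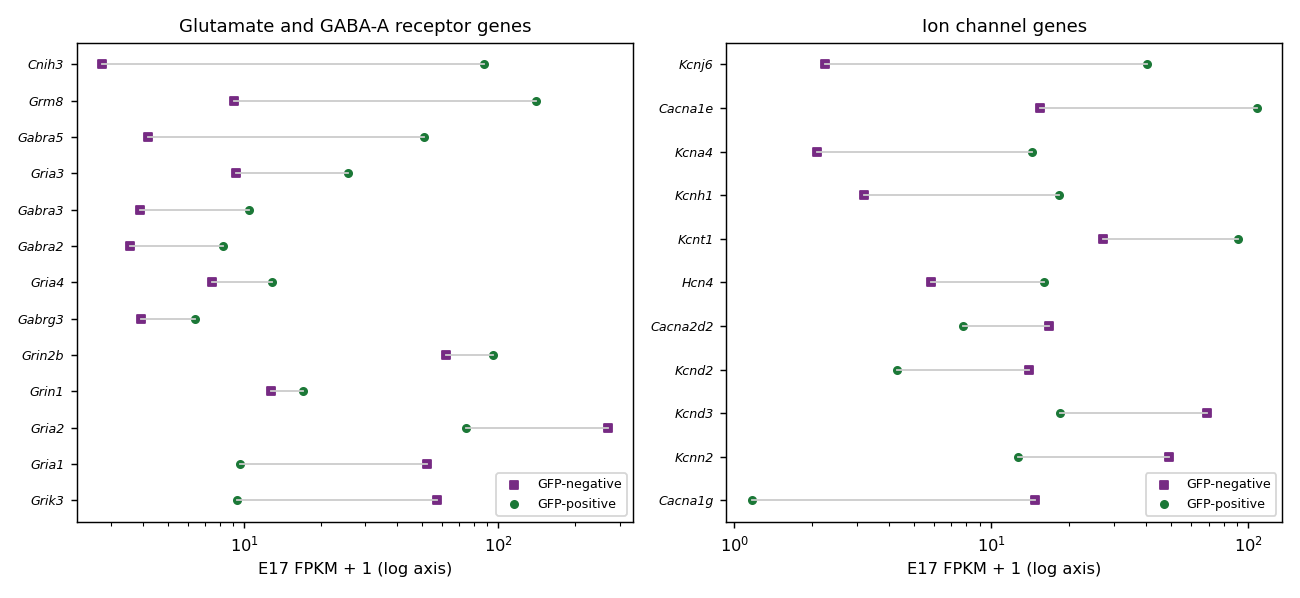
FPKM + 1 at E17 (logarithmic axis) of the glutamate and GABA-A receptor genes (left) and ion channel genes (right) named in the text, ordered by their difference; green circles are GFP-positive, purple squares GFP-negative, 1 library each, joined by a line. Cnih3 and Grm8 head the receptor panel and Grik3 and Gria1 end it; Kcnj6 at 39.4 against 1.26 FPKM heads the channel panel and Cacna1g ends it.

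Besides Nts, few neuropeptide genes reached 5 FPKM. Of 7 such genes, 3 were higher and 2 lower. Tac1, the precursor of substance P, stood at 7.97 and 0.931 FPKM, and Scg2, a secretogranin of dense-core vesicles, at 32.6 and 6.34 FPKM. The 2 lower genes were Sst and Penk. Sst, somatostatin, stood at 1.21 and 26.2 FPKM, and Penk, proenkephalin, was listed at 0 in GFP-positive and stood at 10.8 FPKM in GFP-negative cells. Of 8 genes of peptide processing and dense-core vesicles 2 were higher and 0 lower. Cpe, the carboxypeptidase that trims peptide precursors, stood at 69.9 and 68.6 FPKM. Pcsk1, a prohormone convertase, was under 1 FPKM in both libraries, and Pcsk2, the other main convertase, stood at 2.31 and 4.998 FPKM. The receptor genes for neurotensin were low. Ntsr1 stood at 0.596 and 3.22 FPKM and Ntsr2 at 0.472 and 0 FPKM. The sortilin family gene Sorl1 stood at 69.8 and 21.9 FPKM, and Sort1, sortilin, at 23.7 and 47.1 FPKM in a row it shares with a predicted gene.

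Axon guidance families held both higher and lower genes, with single members far apart. Of 24 semaphorin, plexin and neuropilin genes 5 were higher and 3 lower, with a median of 0.60, and the 3 lower genes are a share near the 11.5% of all protein-coding genes. Nrp2, a receptor of class 3 semaphorins, stood at 89.2 and 27.4 FPKM, and Sema3f, one of its ligands, at 32.9 and 10.4 FPKM. Plxna4, a plexin that also receives class 3 semaphorins, stood at 2.05 and 30.3 FPKM, a difference of -3.36. Nrp1 stood at 34.0 and 1.08 FPKM in a row shared with a microRNA. Of 14 ephrin and Eph receptor genes 5 were higher and 4 lower, with a median of -0.10 that was 0.51 with an FPKM of at least 1. The receptor gene Epha3 stood at 54.7 and 4.68 FPKM, while its relatives Epha4 and Epha6 stood at 2.55 and 14.5 and at 0.581 and 7.99 FPKM. Of 17 slit, robo and netrin pathway genes 3 were higher and 5 lower. Among netrin receptors, Unc5a stood at 31.6 and 6.26 FPKM and Dcc at 224 and 85.9 FPKM, whereas Unc5c stood at 3.95 and 92.9 FPKM, a difference of -4.25.

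Adhesion and matrix lists also held both higher and lower genes. Of 20 cadherin and protocadherin genes 4 were higher and 6 lower, with a median of -0.03. Cdh11, a type II cadherin, stood at 51.7 and 5.91 FPKM, and Pcdh8, a protocadherin, at 0.948 and 12.9 FPKM. Of 13 laminin, integrin and matrix genes 4 were higher and 3 lower. Lamb1, the laminin beta-1 chain, stood at 134 and 7.25 FPKM, a difference of 4.04, and Lamc1, a gamma chain that assembles with it, at 28.4 and 8.64 FPKM. The laminin alpha chains Lama1, Lama2, Lama4 and Lama5 were under 4 FPKM in both libraries. Tnr, tenascin R, stood at 52.2 and 7.46 FPKM, and Tnc, tenascin C, at 2.15 and 17.2 FPKM, so the tenascins were opposed.

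Signalling pathway genes of progenitors were lower more often than higher. Of 11 Wnt pathway genes 5 were lower and 1 higher, of 7 Notch pathway genes 3 were lower and 0 higher, and of 16 Shh and Fgf pathway genes 6 were lower and 2 higher. Their medians were -0.72, -0.35 and -0.77. Over all protein-coding genes 11.5% were lower and 11.4% higher, and the 2 higher Shh and Fgf pathway genes are a share near the latter. Notch1 stood at 4.70 and 49.9 FPKM, and its target Hes5 at 1.08 and 10.8 FPKM. The Wnt receptor genes were opposed, with Fzd1 at 39.8 and 11.0 FPKM and Fzd8 at 0.0504 and 6.10 FPKM. Ptch1, a hedgehog receptor, stood at 15.2 and 35.9 FPKM. Of 18 cholesterol synthesis genes 1 was higher and 0 lower, with a median of 0.13. This was Fdps, an enzyme of the isoprenoid branch point, at 8.25 and 3.14 FPKM.

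Markers of other cells in the bulb differed between the libraries, and their part in the results above was not tested. Erythroid genes stood apart. All 5 at 5 FPKM or more were lower in GFP-positive cells, with a median of -6.21, and the list summed to 52.2 FPKM in GFP-positive and 3765 FPKM in GFP-negative cells. Their defining gene Gata1 was listed at 0 in both. Without erythroid genes and with rescaled libraries, 1383 rows were higher and 1696 lower. The hemoglobin pairs are near-identical in sequence, so reads could be divided among them. Of 6 astrocyte genes 5 were lower, with a median of -2.41, and Gfap stood at 0.194 and 0 FPKM. The list shares Slc1a3 with the radial glia list. Olfactory ensheathing and Schwann glia genes summed to 61.7 FPKM in GFP-positive and 650 FPKM in GFP-negative cells. Most of both sums was Fabp7, which is also in the radial glia list. Both members at 5 FPKM or more, Ednrb and Fabp7, were lower, with a median of -2.87, against -0.40 over all 11 genes. Of 4 Cajal-Retzius genes at 5 FPKM or more, Reln and Calb2 were higher and Cacna2d2 and Ndnf lower, with a median of 0.09, and the list of 9 genes summed to 173 and 66.1 FPKM. Oligodendrocyte, microglia and endothelial markers were mostly under 5 FPKM or listed at 0, and a 0 in this table does not show that a gene was absent. Of 18 microglia and macrophage genes, 12 were listed at 0 in GFP-positive and 13 in GFP-negative cells. The lists of 13, 18 and 18 genes summed to 26.2, 13.3 and 13.6 FPKM in the GFP-positive library, against 21.5, 9.25 and 25.5 in the other. Sox10 and Olig1 were listed at 0 in GFP-positive cells and stood at 0.288 and 1.29 FPKM in GFP-negative cells, Aif1, Cx3cr1 and Cldn5 were listed at 0 in both, and Pecam1 stood at 0.157 and 0.222 FPKM. Of 4 olfactory sensory neuron genes at 5 FPKM or more, 0 were higher or lower, and Cnga2 and Gng8, which define these cells, were listed at 0 in both. The mural and fibroblast list of 17 genes, among them genes of the pericytes that wrap capillaries, summed to 39.8 and 8.28 FPKM, with 3 genes at 0 in GFP-positive and 6 in GFP-negative cells. Rgs5, at 24.4 and 1.63 FPKM, was the 1 member at 5 FPKM or more, and the median over all 17 was 0.24. Kcnj8, Abcc9 and Vtn had 2.39, 3.39 and 3.19 FPKM in the GFP-positive library and were listed at 0 in the GFP-negative one. Tagln stood at 0.802 and 3.28 FPKM, and Pdgfrb, which defines pericytes, at 1.09 and 0.521 FPKM.

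Immediate early genes, which dissociation and neuronal activity both induce, were lower in GFP-positive cells at E17. Of 12 genes 8 were lower and 0 higher, with a median of -1.48. Fos stood at 4.51 and 32.4 FPKM, and Nr4a1, a nuclear receptor of the same early response, at 2.79 and 45.3 FPKM, a difference of -3.61. Dusp1, a phosphatase of the response, was the highest member at 143 and 84.3 FPKM. The list summed to 249 and 382 FPKM. Over the same 12 genes the median was 1.10 at E13, -0.55 at E15 and -0.83 at P0. These genes entered by their E17 level, so the medians do not rank the ages. Over all 20 genes of the list the E17 median was -0.94. The part of this response in other differences was not tested.

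The other 3 ages do not share libraries with E17 and show which of its differences were met again. Of the 969 genes higher at E17, 401 (41.4%) were higher by at least 1 log2 unit at E13, 479 (49.4%) at E15 and 467 (48.2%) at P0, against 13.6%, 11.6% and 8.75% of all 8482 protein-coding genes. Of the 974 genes lower at E17, 449 (46.1%), 492 (50.5%) and 397 (40.8%) were lower at these ages, against 13.04%, 10.01% and 7.47% of all. The shared genes can also be set against the other age's calls among these 8482 genes. The shared higher genes were 34.7%, 48.5% and 62.9% of them and the shared lower genes 40.6%, 58.0% and 62.6%. Genes called at another age but under 5 FPKM in both E17 libraries are not counted. At all 3 other ages, 590 (60.9%) of the higher genes had a positive difference and 40 (4.13%) a negative one, and 564 (57.9%) of the lower genes had a negative and 37 (3.80%) a positive one. Among all protein-coding genes 24.8% were positive and 22.8% negative at all 3. Across the 8482 genes, which are not independent replicates and were chosen by their E17 level, Pearson's r with E17 was 0.51 for E13, 0.66 for E15 and 0.66 for P0.

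Whether the population difference held without E17 was tested with limma on the 3 differences at E13, E15 and P0. Of 15005 rows whose mean FPKM reached 1, 0 passed after adjustment (2865 at an unadjusted p below 0.05, smallest adjusted p = 0.0839). In a fit to 10893 single protein-coding genes, added after the data were seen, 529 (4.86%) passed, of which 292 (2.68%) were higher and 237 (2.18%) lower. Of 966 genes higher at E17 that entered this fit, 228 (23.6%) passed as higher and 1 as lower. Of 973 genes lower at E17, 173 (17.8%) passed as lower and 0 as higher. Among the 6539 genes between, 57 (0.872%) passed as higher and 31 (0.474%) as lower. No row passed in the wider fit.

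In that protein-coding fit, several genes at the ends of the E17 range passed on the other ages alone. In order of age, the FPKM of Cnih3 was 56.6, 60.5, 86.9 and 89.0 in the GFP-positive libraries and 8.23, 2.06, 1.76 and 3.47 in the GFP-negative ones. Its mean difference without E17 was 3.77 ± 0.39 (moderated SE, n = 3 ages, limma adjusted p = 0.0141). Each SE in this paragraph is limma's moderated one, which borrows from the spread of other genes. It is not the SE of the 3 ages alone. The plain SD over these ages was 0.98 for Cnih3, 0.44 for Reln, 0.70 for Dlx1 and 1.38 for Gad1. Reln stood at 349, 55.0, 64.8 and 47.5 FPKM against 32.6, 6.85, 2.81 and 7.58 FPKM, and its mean without E17 was 2.90 ± 0.24 (SE, limma adjusted p = 0.0085). In both genes every GFP-positive library was above every GFP-negative library. Dlx1 stood at 1.13, 1.32, 1.55 and 4.99 FPKM against 38.6, 96.7, 192 and 263 FPKM, with a mean without E17 of -5.02 ± 0.31 (SE, limma adjusted p = 0.00491). Gad1 stood at 0.0686, 0.913, 1.06 and 2.18 FPKM against 5.72, 36.0, 124 and 133 FPKM, with a mean of -4.11 ± 0.53 (SE, limma adjusted p = 0.0215). The populations did not overlap in these genes either, and both had their most negative difference at E17. Lamb1, Kcnj6, Gabra5, Sv2b and Cacna1e passed as higher too, with means without E17 between 3.13 and 4.06 (limma adjusted p = 0.00544 to 0.0104). Per list, 16 of 24 interneuron genes, 11 of 29 cell cycle genes, 12 of 26 forebrain homeobox genes and 9 of 23 radial glia genes passed as lower, against 2.18% of all genes in this fit, and 1 interneuron gene passed as higher. The homeobox list shares genes such as the Dlx genes, Meis2 and Pbx3 with the interneuron list, so these counts overlap. As higher passed 3 of 16 mitral and tufted cell markers, 6 of 15 neurite growth genes and 7 of 28 synaptic vesicle and release genes, against 2.68% of all.

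**Figure D4:**
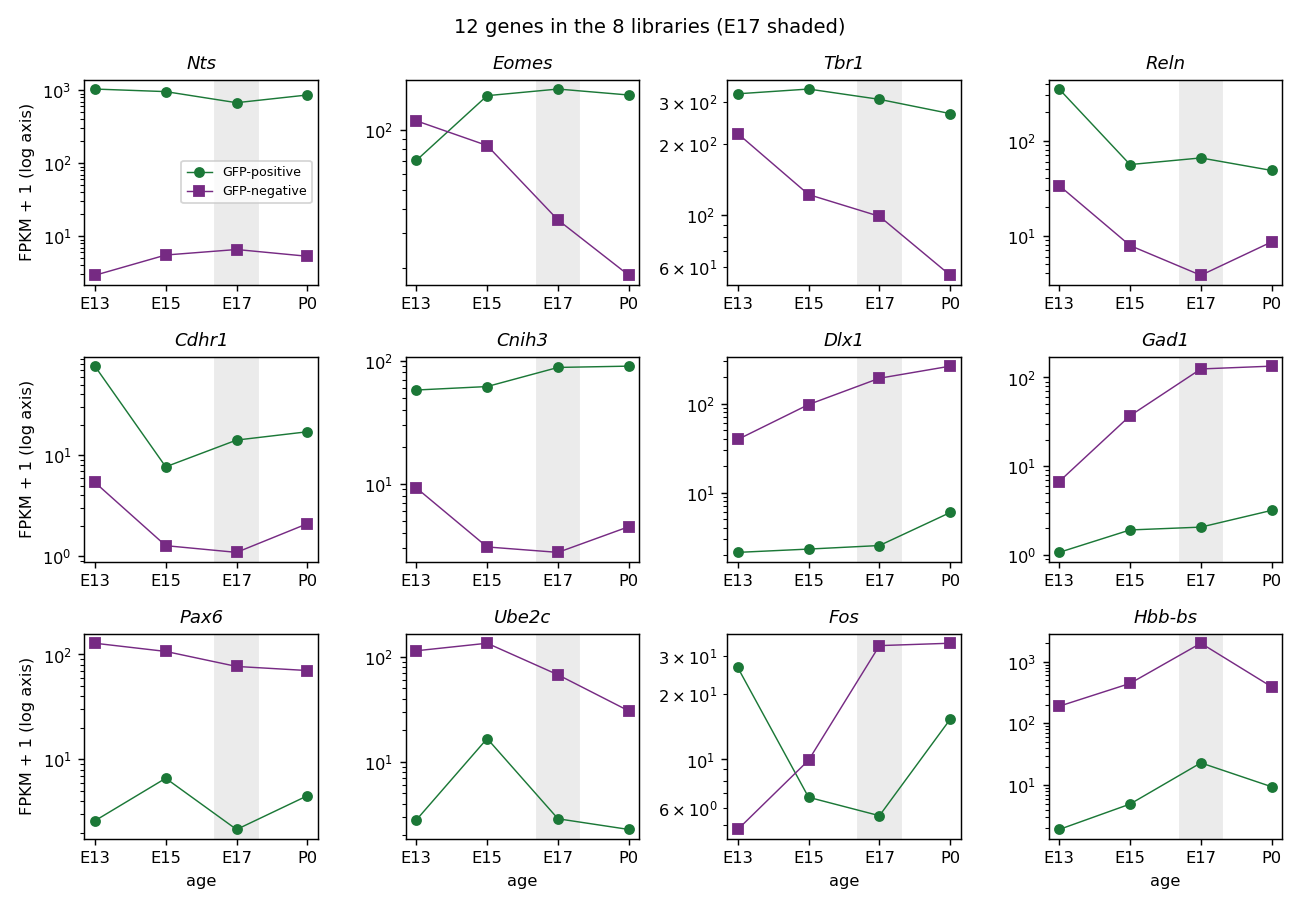
FPKM + 1 of 12 genes in the 8 libraries (logarithmic axes that differ between panels), by age, with E17 shaded; green circles are GFP-positive and purple squares GFP-negative, 1 library each, joined to guide the eye. Nts, Cnih3, Reln and Cdhr1 are higher and Dlx1, Gad1, Pax6, Ube2c and Hbb-bs lower in GFP-positive cells at all 4 ages, while Eomes and Fos change sides after E13.

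Other genes high at E17 were not met at every age. Hmcn1 had an FPKM of 1.56, 6.76, 55.9 and 26.5 in the GFP-positive libraries in order of age, and of 1.02 FPKM or less in each GFP-negative library. Chrm2 stood at 0.263, 3.17, 39.0 and 22.6 FPKM, against at most 1.32 FPKM. Both were highest at E17 and P0. Eomes had an FPKM of 69.3, 149, 161 and 150 in the GFP-positive libraries, against 111, 82.8, 34.0 and 17.3 in the others. Its E17 level was thus close to those at E15 and P0 in GFP-positive cells, and its difference was larger at the ages where its GFP-negative level was lower. Of these, none passed the fit of the other 3 ages (limma adjusted p = 0.0829, 0.209 and 0.373). Rgs5 stood at 0.108, 27.4, 24.4 and 86.2 FPKM against at most 2.98 FPKM, so it was high in 3 of 4 GFP-positive libraries. Hbb-bs stood at 189, 444, 1994 and 391 FPKM in the GFP-negative libraries, so erythroid RNA was most abundant at E17.

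The difference at E17 was also tested against the mean of the other 3 ages. With limma, 0 of 15005 rows passed (796 at an unadjusted p below 0.05, smallest adjusted p = 0.0595), and 0 of 10893 passed in the fit to protein-coding genes (413 at an unadjusted p below 0.05, smallest adjusted p = 0.842). With 1 library a side at each age the fit has 2 residual degrees of freedom. Leaving out predicted genes and rows that name several genes, the genes furthest above the other ages were Rhoc, Tmem121, Mark2, Cln3 and Med18. The shared row of Grm8 and a microRNA departed by 5.24 log2 units, more than any of these. Tmem121, which encodes a membrane protein, stood at 76.0 FPKM in the E17 GFP-positive library and between 0.978 and 3.12 FPKM in the other 7 libraries. Mark2, a kinase that acts on microtubule-associated proteins, stood at 611 FPKM in that library and between 28.5 and 109 FPKM in the others. In both genes 1 library stands apart from all others.

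Rhoc, a small GTPase, differed in both libraries, at 12.1 FPKM in GFP-positive and 0.621 in GFP-negative cells at E17, against 0.316 to 3.16 and 4.22 to 11.9 FPKM at the other ages. By the same choice, the genes furthest below the other ages were Cox20, Laptm5, Rps27, Ccl17 and Cited1. Cox20, an assembly factor of cytochrome c oxidase, was listed at 0 in the E17 GFP-positive library and stood at 25.8 FPKM in the GFP-negative library, while at the other ages the populations lay within 0.22 log2 units. Rps27, a ribosomal protein gene that every cell uses, was also listed at 0 in that library and in 3 others, so a 0 in this table can be a failed estimate. Sst, at 26.2 FPKM in E17 GFP-negative cells, stood at 0.365, 3.92 and 9.94 FPKM in the GFP-negative libraries of E13, E15 and P0. Its E17 departure of -3.22 log2 units passed in neither limma fit.

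**Figure D5:**
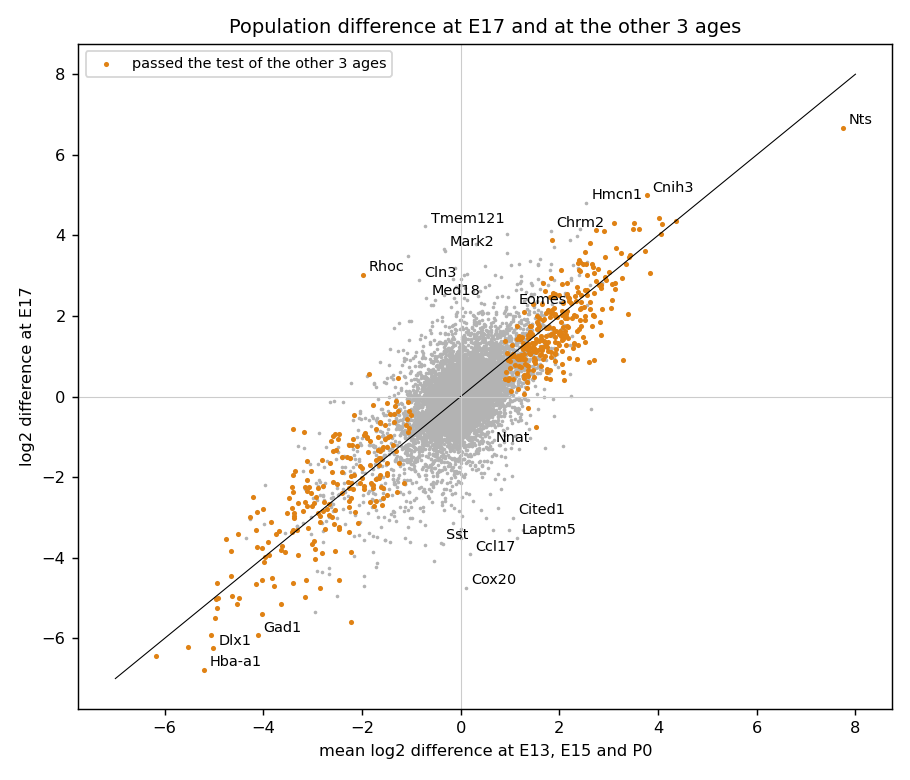
Population difference at E17 (vertical, log2) against its mean at E13, E15 and P0 (horizontal, log2) for the 8482 protein-coding genes, 1 point a gene, with the line of equal values. Orange points passed the protein-coding limma fit of the other 3 ages; Tmem121, Mark2 and Rhoc lie above and Cox20, Laptm5 and Ccl17 below the cloud, and none of them passed the test of E17 against the other ages.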

How the data were processed

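RNA-seq of sorted olfactory bulb cells was analysed from the authors' deposited gene table, whose unit is FPKM. The reads went through TopHat2 2.0.9, Cufflinks 2.2.1 and CASAVA 1.8.2 with build mm10, per the submitters' processing notes. No annotation or strand option is stated there, so overlapping and antisense genes cannot be told apart. The authors set 14 rows apart, among them Dcx, and these were not used. The population of each library comes from its title, because the source field names GFP-positive cells in all 8. Of the 11087 rows compared, 10194 were matched by symbol to GENCODE gene positions on GRCm38, the mm10 assembly, and 568 named several genes. List members in rows shared with a predicted gene or small RNA were counted and are named as such. Those sharing a row with another named gene (Neurod1, L1cam, Foxp1, Fgfr2 and Omp) were not.

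The E17 difference uses a pseudocount of 1 and has no test. The tests used limma 3.58.1 in R 4.3.3 on the difference within each age, with a mean-variance trend, and were 2-sided. They were Benjamini-Hochberg adjusted at 0.05 over rows whose mean FPKM reached 1. The fits were also run on simulated data, with an outcome not given here. A count of 0 therefore does not show that no row departed. With single libraries, p-values reflect the spread between ages only, and nothing says that ages share animals. The implied depth takes as 1 read the most common value of FPKM times transcript length, after subtracting 200 bases. It used genes with a single transcript. The share of low values within 0.1 read of a whole number was computed afterwards. Alternatives covered the pseudocount, filters, scaling, variance trend, row choice and leaving out each age.

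The comparison and the gene lists were chosen with earlier results of these data known. The genes named are the 15 largest differences each way, the 5 most abundant genes of each library, up to 6 members of each list, the 5 largest departures of E17 each way, and Nts, Eomes, Dlx1 and Mapt; further list members were named after their values were seen. Predicted genes were not named. A few genes within the rule are not reported here. Promoters were found for 6755 of 8482 protein-coding genes compared, and because this is under 80% the share of motifs over a set is not given.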

Additional observations from a re-analysis of the deposited data

Results flagged for a closer look

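At E17, 5 genes taken by the naming rule were at least 1 log2 unit apart and opposite in sign to each of the other 3 ages. Actb, which was under 1 log2 unit at E17 (-0.49), was opposite too, at 0.07 to 0.71. For comparison, among protein-coding genes, 40 of 969 higher and 37 of 974 lower at E17 were opposite at all 3. Tmem121 lay at 4.23 at E17 and between -0.92 and -0.50 at the other ages (limma adjusted p of the departure = 0.1001). Rhoc lay at 3.01 against -2.32 to -1.63 (limma adjusted p = 0.140). Cln3, a lysosomal membrane protein, lay at 2.88 at E17, with 19.7 and 1.805 FPKM, against -1.78 to -0.23 (limma adjusted p = 0.719). Med18, a Mediator subunit, lay at 2.44 at E17, with 12.4 and 1.48 FPKM, against -1.12 to -0.28 (limma adjusted p = 0.522). Nnat lay at -1.22 against 0.47 to 0.85 (limma adjusted p = 0.717), and its E17 GFP-negative level of 6797 FPKM was the highest of the 8 libraries. These p-values are of the wider fit to all kept rows, and each was larger in the fit to protein-coding genes. None of the 5 passed the threshold in either fit, and these genes were chosen for their departure among named genes.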

How the results depend on the processing

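The counts at E17 follow their thresholds. From 1483 rows higher and 1613 lower, they moved to 2380 and 2549 with an FPKM of at least 1, to 706 and 715 with at least 20, to 550 and 713 at 2 log2 units, to 941 and 1067 with a pseudocount of 5, and to 969 and 974 for single protein-coding genes. They stayed within 1.5 times with a pseudocount of 0.1 (1644 and 1770), with median-of-ratios factors (1548 and 1528), without erythroid genes and rows under 300 bases (1261 and 1357) and rescaled without erythroid genes (1383 and 1696), the last pair added after the data were seen. The 46 genes taken by the naming rule were run in 5 alternatives, which could hardly change their direction. An FPKM minimum leaves a value as it is (38 of the 46 genes reach 20), and a pseudocount cannot turn its sign. The median-of-ratios factors of the 2 libraries were only -0.0363 log2 units apart. What a pseudocount or factor could change was the side of 1 log2 unit on which a gene lay, and all 46 kept theirs. The other genes named were not run. List medians, here without genes that have more than 1 row, moved in 8 lists with an FPKM of at least 1, in 11 with at least 20, in 5 with a pseudocount of 0.1 and in 11 with a pseudocount of 5, and in 0 of 38 with median-of-ratios factors. That of microglia and macrophage genes turned to -0.0702 with an FPKM of at least 1, where it rests on more genes. That of ephrin and Eph receptor genes went from -0.10 to 0.51 and 0.20 with an FPKM of at least 1 and 20, that of cadherin genes from -0.03 to 0.58 with at least 20, and that of proneural genes from -0.45 to 1.04 with at least 20. With at least 20, that of Notch pathway genes went from -0.35 to -3.02 and that of GABA-A receptor genes from 1.32 to 2.62. Rows whose E17 difference departed from the other ages numbered 0, and 174 with no filter on low values, 82 with a mean FPKM of at least 5 and 101 with no variance trend (limma); the cause was not tested. Rows that differed at E13, E15 and P0 numbered 0, and 529 in the added protein-coding fit; the cause was not tested. Leaving out 1 other age gave 0 to 0 calls in both tests (limma smallest adjusted p = 0.195 to 0.631). Both limma tests take the difference within an age, which pairs the populations by age. By replicate number, no paired analysis was possible because each group has 1 sample and its number was given in accession order. Depth limits genes near 5 FPKM most, and with 1 library a side no E17 difference has an error.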
